A study of Bos taurus with 27 samples.

Results

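The leukocyte lineage genes examined here were 40 genes best known from blood cells, followed over 27 pools of bovine blastocysts. They were chosen by name, with the levels of several of them in these pools already known, so their levels are a description and not a test. All 40 were found among the 32637 genes counted. The 15 general leukocyte genes were PTPRC, CD52, CD53, CD37, CD48, LAPTM5, CORO1A, LCP1, LCP2, RAC2, ARHGDIB, ITGB2, IKZF1, IL2RG and CXCR4. The 10 T and natural killer cell genes were CD3E, CD3D, CD3G, CD2, CD5, LCK, ZAP70, GZMB, NKG7 and CCL5. The 3 B and plasma cell genes were CD79A, CD79B and JCHAIN, and the 9 myeloid genes were LYZ, TYROBP, FCER1G, CSF1R, SPI1, AIF1, ITGAM, CD14 and CD68. The 3 genes of MHC class II antigen presentation were CD74, BOLA-DRA and BOLA-DRB3.

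Each pool combined the RNA of 2 good-quality blastocysts at the expanding or expanded stage, produced in vitro from abattoir oocytes matured with preovulatory follicular fluid and fertilized with semen of a single bull. Follicular fluid came from follicles of greater or lesser maturity, but the pools were not assigned to these treatments here, and all 27 were treated as 1 group. Libraries were made from the 3' end of polyadenylated transcripts. A pool had 10517606 to 44253564 counts on genes (median 22293594), so 3 counts corresponded to 0.0678 to 0.285 CPM, which is the count of a gene per 1000000 counts of its pool. Summed markers of the 3 blastocyst lineages were present in every pool, at 15555 to 38761 CPM for trophectoderm, 174 to 824 CPM for epiblast and 346 to 1554 CPM for hypoblast. The sums had medians of 26415, 463 and 999.9 CPM. The most abundant single gene of each list had medians of 18607, 399 and 712 CPM. Fits on these sums therefore mostly follow 1 or a few abundant genes of each list.

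A blastocyst consists of trophectoderm, epiblast and hypoblast and has no blood of its own. Leukocytes arise from blood-forming tissue later in development, and each branch carries its own machinery. T cells read antigen through a receptor joined to the CD3 chains, B cells through a receptor joined to CD79A and CD79B, plasma cells join secreted antibody with the J chain, and myeloid cells carry lysozyme and the adaptors TYROBP and FCER1G. The question was whether genes of these branches rose in the same pools or whether each was expressed on its own. In bulk RNA, more cells of a type and more RNA per cell cannot be told apart.

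Genes of different branches rose in the same pools, and a second set of members did not follow them. In pools with more PTPRC, the general leukocyte phosphatase CD45, transcripts of CD3G (T cell), JCHAIN (plasma cell), LYZ (myeloid) and CD74 (class II) were also more abundant. LCK, ZAP70, GZMB and CD48, which carry names of T and natural killer cell or leukocyte biology, did not pass the test with PTPRC, and their slopes were between -0.07 and 0.22 on the log2 scale per doubling of PTPRC.

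The levels were low for most members. At least 1 CPM in 12 pools, the limit used to retain genes, was reached by 27 of the 40 genes, and 13 reached it in every pool. The retained genes were 12 of 15 general leukocyte genes, 4 of 10 T and natural killer cell genes, 1 of 3 B and plasma cell genes, 7 of 9 myeloid genes and 3 of 3 class II genes. The 13 genes below the limit were CD37, LAPTM5, RAC2, CD3E, CD3D, CD2, CD5, NKG7, CCL5, CD79A, CD79B, CSF1R and ITGAM. Of all 40, 6 stayed under 1 CPM in every pool and 6 had 0 counts in at least 1 pool. Between 29 and 40 members had 3 counts or more in any given pool (median 36).

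**Figure D1:**
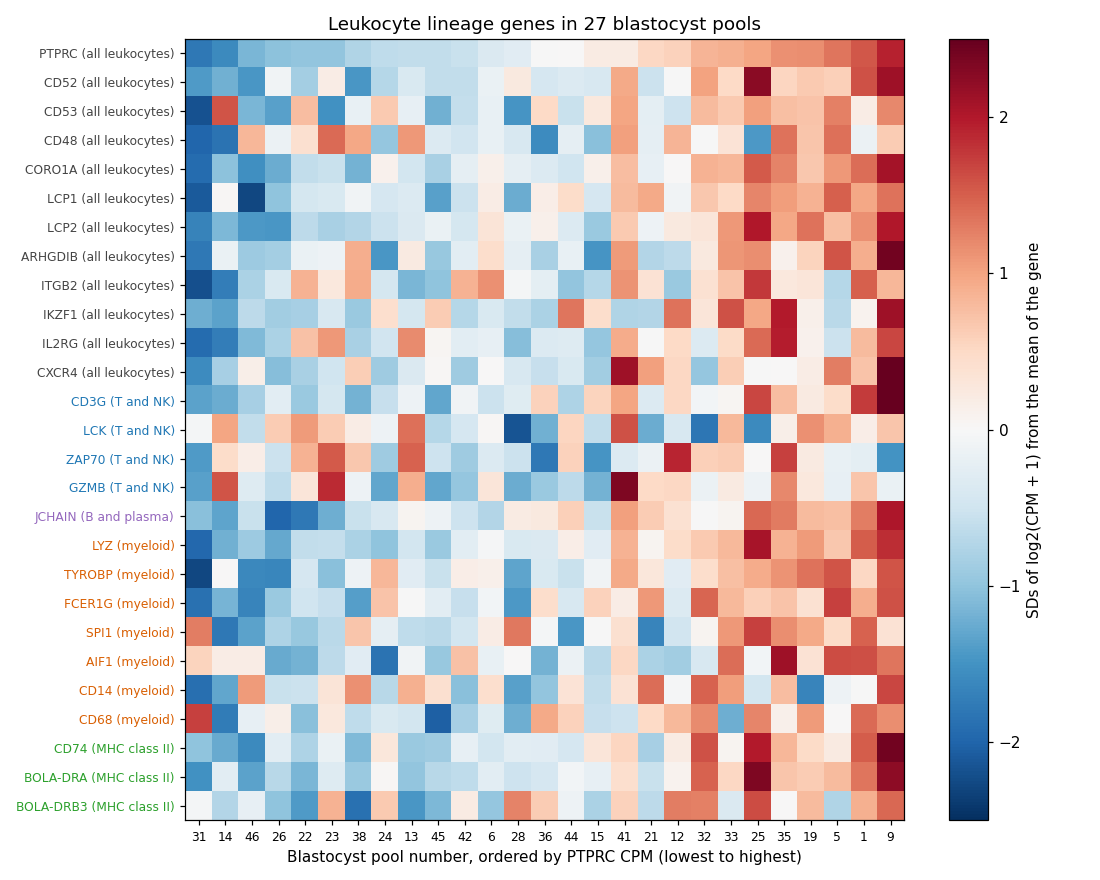
The 27 retained leukocyte lineage genes (rows, coloured by list) in the 27 blastocyst pools (columns, ordered by PTPRC CPM), as SDs of log2(CPM + 1) from the mean of each gene. Pools 9 and 25 are red for genes of every list, pool 31 is blue for most, and the rows of CD48, LCK, ZAP70 and GZMB do not follow the order of PTPRC.

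Among the general leukocyte genes, PTPRC (chr16:77540603-77670102, ARS-UCD2.0) was lowest at 1.01 CPM in pool 31, had a median of 2.83 CPM and was highest at 6.75 CPM in pool 9. CORO1A, an actin-binding protein of leukocytes, was between 1.69 CPM in the same lowest pool and 14.3 CPM in the same highest pool, with a median of 4.71. The actin-bundling protein LCP1 was between 0.748 and 7.65 CPM (median 3.63). These 3 genes were low and high in much the same pools, with Spearman correlations (rho) of 0.913 for CORO1A and 0.834 for LCP1 with PTPRC. CD52, a small surface glycoprotein, was between 6.81 and 42.3 CPM (median 13.2), and the signalling adaptor LCP2 was between 0.326 and 3.31 CPM (median 1.15). Both were highest in pool 25. ARHGDIB ranged from 4.79 to 37.0 CPM with a median of 11, and was highest in pool 9.

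IKZF1, the lymphoid transcription factor Ikaros, was between 0.509 and 5.44 CPM (median 1.24). The chemokine receptor CXCR4 was between 0.424 and 8.05 CPM (median 1.74). IL2RG, the common cytokine receptor chain, was between 0.685 and 9.82 CPM (median 2.83). Pool 9 was highest for IKZF1 and CXCR4, and pool 35 for IL2RG. The tetraspanin CD53 ranged from 0.945 to 6.86 CPM with a median of 3.70 and was highest in pool 14, which was next to lowest in PTPRC. ITGB2, the beta chain of the leukocyte integrins, had a median of 3.84 CPM and a range of 0.685 to 8.19. CD48, a ligand of the SLAM receptor family, was between 188 and 530 CPM (median 329), a 2.81-fold range, where PTPRC spanned 6.68-fold. Of the 3 general genes under the limit, CD37 reached 1.52 CPM, RAC2 0.435 CPM and LAPTM5 0.138 CPM.

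The T and natural killer cell genes held the chains of the T cell receptor complex, 2 kinases that act on them and proteins of killing. The 3 CD3 genes lie next to each other on chromosome 15, CD3E at 29004581-29015196, CD3D at 29019453-29023621 and CD3G at 29025582-29037075. CD3G was between 0.554 CPM in pool 31 and 5.64 CPM in pool 9, with a median of 1.38. CD3E had a median of 0.900 CPM and a range of 0.144 to 3.31, and CD3D a median of 0.841 and a range of 0.215 to 3.37. Pools 9 and 25 were the 2 highest pools of both CD3E and CD3D. The receptor-proximal kinase LCK was between 15.8 CPM in pool 28 and 94.8 CPM in pool 41, with a median of 47.7. ZAP70, the kinase that LCK activates at the CD3 chains, was between 27.5 and 154 CPM (median 59.6). In pool 9, the highest for CD3G, ZAP70 was near its lowest value and LCK was above its median, so these kinases were not highest with the receptor chains. The cytotoxic protease GZMB had the widest range of the retained members, from 0.163 to 22.4 CPM with a median of 2.15. CD2, CD5, NKG7 and CCL5 had medians of 0.0484 to 0.449 CPM. NKG7, a granule protein of cytotoxic cells, was the most uneven of the 40, with 35.1% of its summed CPM in pool 9, where it reached 3.10 CPM against 0.740 CPM in the next pool.

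For the B and plasma cell genes, JCHAIN (chr6:86032997-86042394) was between 2.07 CPM in pool 26 and 9.36 CPM in pool 9, with a median of 4.71. CD79A, a signalling chain of the B cell receptor, had a median of 0.170 CPM, 0 counts in 2 pools and a highest value of 0.895 CPM. Its partner CD79B had a median of 0.527 CPM, with a lowest of 0.0978 and a highest of 1.86. Both chains were highest in pool 9, as JCHAIN was.

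Of the myeloid genes, LYZ (chr5:44506988-44515794) was between 0.847 CPM in pool 31 and 8.27 CPM in pool 25, with a median of 2.63. TYROBP was between 2.38 and 16.6 CPM (median 7.94) and FCER1G between 0.522 and 3.97 CPM (median 1.82). Each of these 3 had its lowest value in pool 31. SPI1, the myeloid transcription factor PU.1, had a narrow range, from 0.679 to 2.70 CPM with a median of 1.5. AIF1, a macrophage actin-binding protein, was between 1.73 and 24.7 CPM (median 6.35) and highest in pool 35. CD14, the co-receptor for lipopolysaccharide, ranged from 0.0652 CPM, which was 2 counts, to 5.03 CPM with a median of 1.65. CD68, a lysosomal protein of macrophages, was between 0.432 and 3.62 CPM (median 1.71), and its highest pool was pool 31, the pool in which PTPRC was lowest. CSF1R, the receptor for macrophage colony-stimulating factor, had a median of 0.449 CPM and a highest value of 2.38. The integrin chain ITGAM stayed below 0.861 CPM. Reads of LYZ could be shared with neighbouring lysozyme genes of near sequence, so its level is uncertain. LYZ3, the only other lysozyme gene retained, was highest in pool 41, and LYZ2, at 0 counts in 21 pools, was highest in pool 9 at 3.44 CPM.

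Pools 9 and 25 were the 2 highest pools of each class II gene. CD74, the invariant chain (chr7:61747919-61755725), was between 1.60 and 17.6 CPM (median 4.12). BOLA-DRA, the alpha chain of the DR molecule, was between 2.67 and 19.7 CPM (median 5.47), and the beta chain BOLA-DRB3 between 3.30 and 23.4 CPM (median 9.62). Copies of the class II genes resemble each other, and reads could have been divided among them.

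Pool 9 was the highest pool of 14 of the 40 genes (35.0%) and among the 3 highest of 27 of them. Pool 25 was the highest of 10 (25.0%) and among the 3 highest of 21. Of all 12310 retained genes, 7.37% were highest in pool 9 and 2.60% in pool 25. Pool 31 was the lowest pool of 16 of the 27 retained members, and of 17.9% of all retained genes. The total counts of pools 9 and 25 were 14526367 and 11482479, below the median, and that of pool 31 was 30679078. Pool 9 also had the most interferon tau transcripts, 589 CPM against a median of 40.9, and the least of the summed hypoblast markers, 346 CPM against a median of 999.9 CPM. The members were also fitted to each of these measures, as given below, and total count was entered as a term in the anchor fits. The part of interferon tau and hypoblast markers in the relations among members was not tested.

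**Figure D2:**
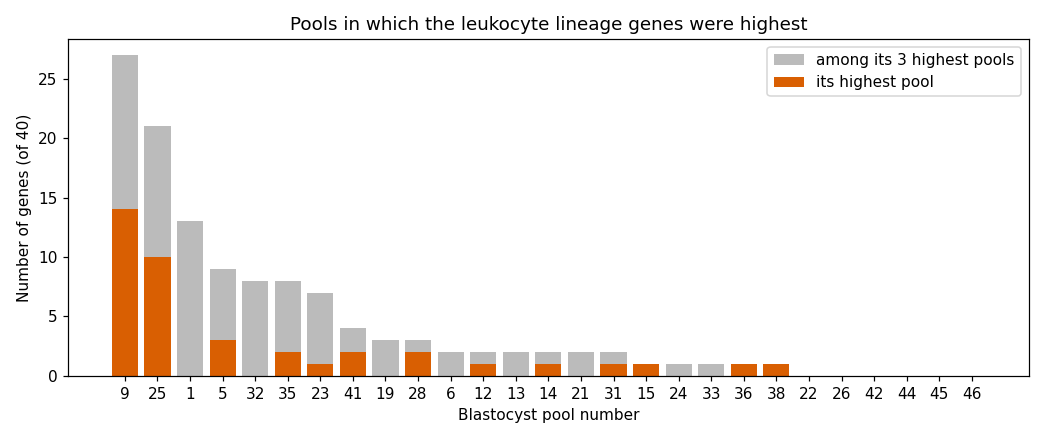
For each of the 27 blastocyst pools, the number of the 40 leukocyte lineage genes that had their highest CPM there (orange) or were among their 3 highest pools there (full bar). Pools 9 and 25 held the highest value of 14 and 10 genes.

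A highest value in 1 pool was not by itself unusual at these levels. The highest pool held a median of 9.73% of a member's summed CPM, where an equal division would give 3.70%. For the 21 retained members with a mean under 10 CPM the median was 9.06%, and for all 5072 retained genes under 10 CPM it was 8.54%. Some members were highest in other pools, such as LCK and GZMB in pool 41, ZAP70 in pool 12 and CD68 in pool 31. What part of the members of different lists had in common was the identity of the pools. Of the 27 retained members, 9 were highest in pool 9 and 7 in pool 25, against 7.37% and 2.60% of all retained genes.

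To describe this, 1 member of each list was taken as its anchor, the first in the order of the list that was retained. These were PTPRC, CD3G, JCHAIN, LYZ and CD74. The slope of every other retained gene was fitted with edgeR's quasi-likelihood test against log2(CPM + 1) of the anchor, and gives the log2 change of the gene per doubling of the anchor's CPM + 1. Benjamini-Hochberg adjustment was over 12309 genes and the limit was an adjusted p of 0.05. The pools came from both treatments and from several IVF replicates, which could not be entered as terms. The p-values therefore take the pools as independent, and the part of treatment and IVF replicate in the slopes and correlations was not tested. LYZ, JCHAIN, CD52 and IL2RG are also on the study's list of genes that differed with follicle maturity. All of them were higher there in the lesser maturity treatment, so their relations were measured over a mixture of treatments that shifted them the same way.

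With PTPRC, 14 of the 26 other retained members rose and 0 fell, and 0.756% of all genes tested rose. The median slope of the members was 0.90, against 0.00 over all genes tested. LYZ had a slope of 1.37 ± 0.16 (SE, edgeR adjusted p = 3e-06), so it rose 2.59-fold per doubling of PTPRC CPM + 1. CD3G rose with a slope of 1.34 ± 0.23 (adjusted p = 0.00068), CD74 with 1.33 ± 0.20 (adjusted p = 0.000113) and JCHAIN with 0.84 ± 0.15 (adjusted p = 0.000948). Genes of all 5 lists were thus among those that rose with PTPRC. From the general list these were CORO1A, CD52, LCP2, LCP1, ARHGDIB, IKZF1 and CXCR4, with slopes of 0.87 to 1.45. The myeloid adaptors FCER1G and TYROBP rose by 1.18 and 0.96 and the class II chain BOLA-DRA by 1.19. The slopes of ZAP70 (0.02 ± 0.23), LCK (-0.04 ± 0.22) and GZMB (-0.07 ± 0.60) were near 0 with adjusted p of 0.960 to 0.979, and the wide error of GZMB leaves a broad range of slopes possible. The 12 members that did not pass also held CD53, CD48, ITGB2, IL2RG, SPI1, AIF1, CD14, CD68 and BOLA-DRB3, with slopes of 0.22 for CD48 to 0.93 for IL2RG.

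**Figure D3:**
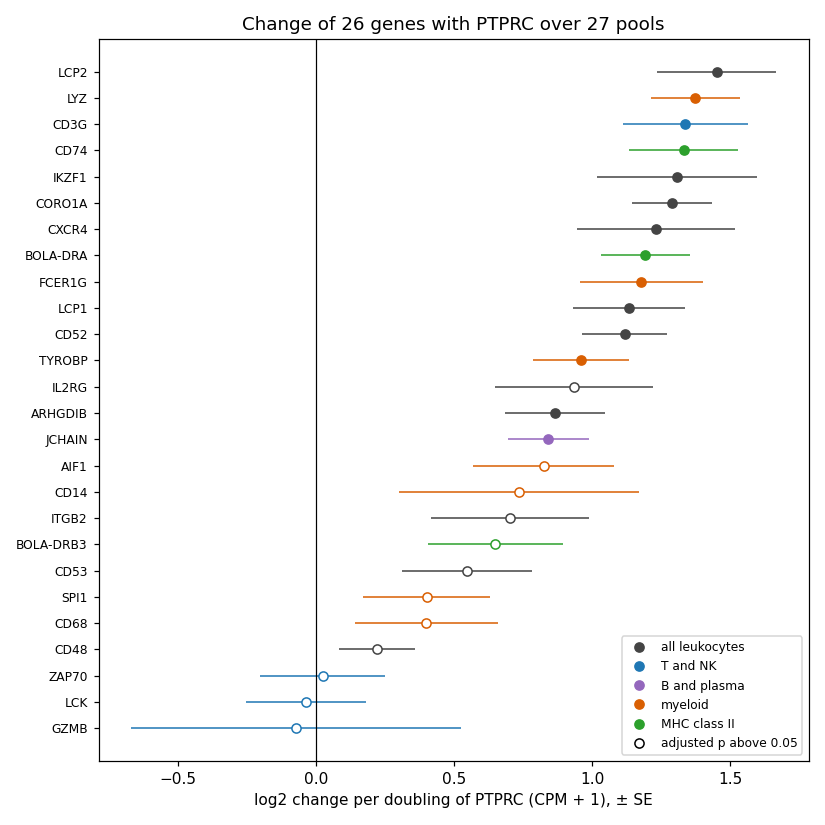
Slope of each of the 26 other retained leukocyte lineage genes against PTPRC over 27 pools (log2 change per doubling of CPM + 1), with its SE as a bar and the list as colour. Filled points passed an adjusted p of 0.05, from 0.84 for JCHAIN to 1.45 for LCP2, and the 3 T and natural killer cell genes LCK, ZAP70 and GZMB lie near 0.

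Genes of other branches also passed with an anchor of a single branch. With CD3G, 9 of 26 members rose (0.422% of all genes tested rose), and these were PTPRC, CD52, CORO1A, LCP2, ARHGDIB, JCHAIN, LYZ, CD74 and BOLA-DRA. LYZ rose by 1.27 ± 0.19 per doubling of CD3G and JCHAIN by 0.77 ± 0.16 (edgeR adjusted p = 0.000205 and 0.0105). None of the 3 other retained T and natural killer cell genes, LCK, ZAP70 and GZMB, passed with CD3G. With LYZ, 13 of 26 rose (0.699% of all genes tested), among them CD3G by 1.19 ± 0.20 and JCHAIN by 0.73 ± 0.13. Of the 6 other myeloid genes only TYROBP rose with LYZ, and FCER1G had an adjusted p of 0.0668. With JCHAIN, 10 of 26 rose (0.284% of all genes tested), among them LYZ by 1.43 ± 0.22, PTPRC by 1.35 ± 0.22 and CD3G by 1.37 ± 0.28. With CD74, 8 of 26 rose (0.406% of all genes tested), namely BOLA-DRA, BOLA-DRB3, CD3G, CD52, CORO1A, LCP2, LYZ and PTPRC. JCHAIN had a slope of 0.49 ± 0.12 with CD74 and an adjusted p of 0.0794. No member fell with any of the 5 anchors.

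Grouped by these fits, 8 members rose with every anchor they were tested with: PTPRC, CD52, CORO1A, LCP2, CD3G, LYZ, CD74 and BOLA-DRA. They came from the general, T cell, myeloid and class II lists. A further 9 rose with some anchors, namely LCP1, ARHGDIB, IKZF1, IL2RG, CXCR4, JCHAIN, TYROBP, FCER1G and BOLA-DRB3. The 10 that rose with no anchor were CD53, CD48, ITGB2, LCK, ZAP70, GZMB, SPI1, AIF1, CD14 and CD68. Missing the limit does not show that a gene was unrelated to an anchor: SPI1, for one, had a rho of 0.515 with LYZ and 0.519 with PTPRC.

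Fewer members passed when pools 9 and 25 were left out. Without both, 11 members rose with PTPRC and 11 with LYZ, among them CD3G, JCHAIN and CD74 in each case. Of all 12309 genes tested, 70 and 74 rose. The counts were 5 with CD3G and 5 with CD74, where 16 and 24 of all genes rose. With JCHAIN, 4 rose without pool 9, 7 without pool 25 and 0 without both, where 14, 17 and 1 of all genes rose. In the last of these, 15 of 26 members and 762 of all genes still had an unadjusted p under 0.05 (edgeR). PTPRC there had a slope of 1.35 (edgeR adjusted p = 0.0814). With total count as a further term, 12, 6, 3, 12 and 6 members rose with PTPRC, CD3G, JCHAIN, LYZ and CD74. Of all genes, 104, 37, 9, 86 and 37 rose. NKG7 and other members under the limit could be fitted only without the limit on abundance, and CD3D, CD3E, CD79B and NKG7 then also rose with PTPRC. In that fit 540 of 24637 genes rose. NKG7 had 45 counts in pool 9 against a median of 3, and it was not refitted without that pool.

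**Figure D4:**
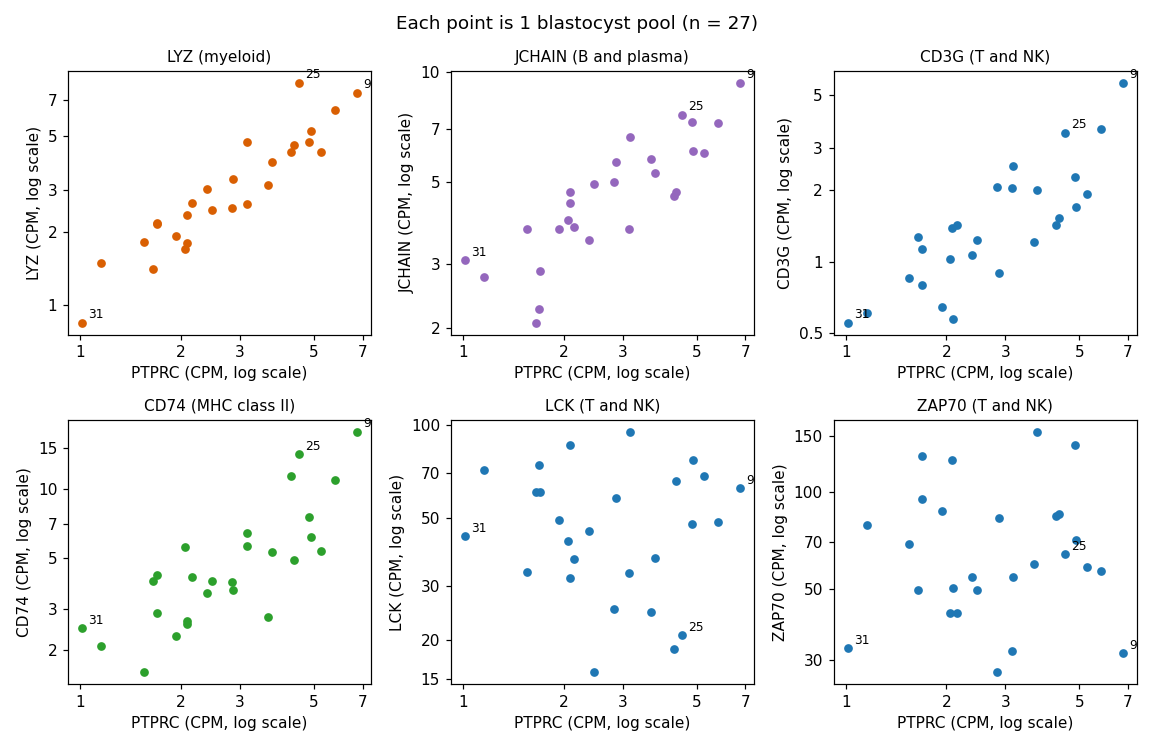
CPM of LYZ, JCHAIN, CD3G, CD74, LCK and ZAP70 against CPM of PTPRC in 27 blastocyst pools, both on log scales, with pools 9, 25 and 31 numbered. The first 4 genes rise along PTPRC through the whole range (rho 0.940, 0.867, 0.818 and 0.792), and LCK and ZAP70 do not (rho -0.02 and 0.02).

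The 5 anchors were also compared in pairs. The rho of PTPRC over the 27 pools was 0.940 with LYZ (Pearson's r = 0.927), 0.867 with JCHAIN (r = 0.853), 0.818 with CD3G (r = 0.816) and 0.792 with CD74 (r = 0.805). Between branches, rho was 0.822 for CD3G with LYZ (r = 0.846), 0.731 for CD3G with JCHAIN (r = 0.760) and 0.850 for JCHAIN with LYZ (r = 0.844). CD74 had rho of 0.833 with CD3G (r = 0.865), 0.775 with LYZ (r = 0.832) and 0.634 with JCHAIN (r = 0.674). In 9 of the 10 pairs the permutation p was at most 3e-05 for rho, where 1e-05 is the smallest that 100000 permutations can give, and the adjusted p was 0.0106 or less over the 12309 genes correlated with the first gene of a pair. For JCHAIN with CD74 the permutation p was 0.0004 for rho (adjusted p = 0.0735) and 0.00013 for r (adjusted p = 0.0308). Without the 2 pools farthest from the median of the first gene, r remained between 0.640 and 0.901. CPM of genes in the same library share its total count.

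In a ratio of counts of 2 genes, the total of the library cancels. LYZ spanned 9.76-fold over the pools, but the ratio of LYZ to PTPRC counts spanned 2.23-fold, from 0.817 to 1.83. The ratio of CORO1A to PTPRC spanned 2.08-fold, that of JCHAIN 2.82-fold and that of CD3G 3.03-fold. These T cell, plasma cell and myeloid genes varied less in proportion to PTPRC than in CPM. For other members the reverse held or the ratio kept a wide range. The ratio to PTPRC spanned 14.1-fold for LCK and 16.4-fold for ZAP70, whose own ranges were 6.01-fold and 5.62-fold. The ratio spanned 97.5-fold for GZMB and 58.3-fold for CD14.

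Over all 351 pairs of the 27 retained members, the median rho was 0.439, and 59 pairs (16.8%) had a rho of 0.7 or more. Over all 75761895 pairs of retained genes the median was 0.0251 and 0.0937% reached 0.7. The median rho was 0.296 among the 4 T and natural killer cell genes, 0.328 among the 7 myeloid genes and 0.538 among the 12 general genes. Between the general list and JCHAIN the median was 0.606, and between the general and myeloid lists 0.440. The T and natural killer cell list, of which LCK, ZAP70 and GZMB make up 3 of 4 retained genes, had lower medians, of 0.313 with the general list, 0.158 with the myeloid list, 0.0998 with JCHAIN and 0.0470 with the class II list. Of its 28 pairs with myeloid genes, 1 reached 0.7, that of CD3G with LYZ. These correlations are descriptions, since the members were chosen with values known and genes are not independent.

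Outside the 40, some other retained genes of the myeloid and class II lists moved likewise. Of 8 other myeloid genes retained, 5 rose with PTPRC, 5 with LYZ, 2 with JCHAIN, 1 with CD3G and 1 with CD74. Of 4 other class II genes retained, 1 rose with each anchor. CTSS, the cathepsin that trims the invariant chain, and CSF3R, the granulocyte colony-stimulating factor receptor, rose with each of the 5 anchors, with slopes of 1.26 ± 0.17 and 1.09 ± 0.18 for PTPRC (edgeR adjusted p = 3.61e-05 and 0.000427). The neutrophil calcium-binding proteins S100A12, S100A8 and S100A9 rose with PTPRC by 1.27, 1.27 and 1.21. Of the other T and natural killer cell genes listed, 3 of 16 were retained and 0 rose with an anchor, and of the other B and plasma cell genes 2 of 12 were retained and 0 rose. MS4A1, the B cell protein CD20, was under the abundance limit and rose with each of the 5 anchors when no limit was applied, by 1.36 ± 0.27 with PTPRC (adjusted p = 0.00339). Most of its list did not. In those fits 4, 2, 1, 1 and 3 of these 12 genes rose with PTPRC, CD3G, JCHAIN, LYZ and CD74. Of the 16 T and natural killer cell genes, 2, 0, 1, 2 and 0 rose in the same order. Of all 24637 genes tested, 540, 360, 443, 508 and 385 rose.

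The genes with a pattern most like the anchors, by the highest rho over 27 pools among the retained genes that are not members, were taken as 5 for each anchor. For CD3G they included LOC509513, annotated with the synonym TCRB for the T cell receptor beta chain (rho 0.824), and LOC404103, annotated with the synonym BPTI (0.834). The remaining 3 were LOC100336282, LOC101908015 and LOC104968634, with rho of 0.831, 0.830 and 0.826. For CD74 they were the class II gene BLA-DQB (0.921), LOC509513 (0.918), LOC101908015 (0.911), the lymphocyte GTPase GIMAP6 (0.893) and LOC132345139 (0.890). For PTPRC they were LOC404103 (0.927), LOC508666 (0.924), LOC524810, annotated with immunoglobulin heavy variable synonyms (0.905), the platelet chemokine PF4 (0.900) and LOC100848940 (0.898). For JCHAIN they were LOC508666 (0.849), PF4 (0.839), CTSS (0.811), MFNG (0.811) and LOC404103 (0.810). For LYZ, LOC508666, LOC404103, LOC524810 and LOC100848940 were followed by HBB, the beta chain of haemoglobin (0.900). LOC508666 and BLA-DQB are also on the study's list, as higher in the lesser maturity treatment. That list names LOC508666 as a C-C motif chemokine.

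HBB was between 1.07 and 8.01 CPM (median 2.42) and was highest in pool 25. It rose with each of the 5 anchors, by 1.15 ± 0.20 with PTPRC (edgeR adjusted p = 0.000925) and 1.13 ± 0.15 with LYZ (adjusted p = 2.04e-05), and its ratio to PTPRC counts spanned 3.14-fold. Of the 8 red cell genes listed, HBB and ALAS2 were retained, and ALAS2 did not pass with an anchor. AHSP had a median of 0.345 CPM and reached 2.56 CPM in pool 42, the other 5 had a median of 0 CPM, and SLC4A1 had 0 counts in all pools. The summed level of this list was between 1.5 CPM in pool 31 and 21.8 CPM in pool 9. The part of red cell, platelet or other blood cell transcripts in the values of the members was not tested. Among the markers of trophectoderm, GATA3 fell with PTPRC, by 0.41 ± 0.09 on the log2 scale (adjusted p = 0.0190), and no other trophectoderm, epiblast or hypoblast marker passed with an anchor among the retained genes. Without the limit on abundance, HNF4A also fell with PTPRC and FN1 with CD3G, and GATA3 fell with CD3G, LYZ and CD74 as well.

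The members were then set against measures of the pools themselves. With the total count, 0 of 27 members passed in edgeR, as did 0.0% of all genes tested. An unadjusted p under 0.05 was found for 11 of the 27 members and for 340 of all 12310 genes. The median slope of the members was -0.46 per doubling of the total count. Without pools 9 and 25 it was -0.24, with 0 members and 464 of all genes at an unadjusted p under 0.05. With the summed hypoblast markers 0 members passed (0.967% of all genes did), and the median slope of the members was -0.62. An unadjusted p under 0.05 was found there for 12 of 27 members and 2025 of all 12310 genes. With interferon tau, the trophectoderm signal of early pregnancy, 0 members passed (2.3% of all genes). There 7 members and 2010 of all genes had an unadjusted p under 0.05. With the summed epiblast markers 0 members passed (4.84% of all genes), and 0 members and 2551 of all genes had an unadjusted p under 0.05.

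CD48, LCK and ZAP70, which did not follow the anchors, instead differed with Y-linked transcripts. The 5 Y-linked genes DDX3Y, ZRSR2Y, USP9Y, ZFY and EIF1AY together were between 0.430 and 1.65 CPM in 9 pools and between 18.9 and 197 CPM in the other 18. CD48 had a median of 468 CPM in the 9 pools and 316 CPM in the 18, with ranges of 381 to 530 and 188 to 441 CPM. LCK had medians of 65.7 and 39.3 CPM, with ranges of 37.0 to 94.8 and 15.8 to 76.8. ZAP70 had medians of 95.7 and 52.3 CPM, with ranges of 54.5 to 154 and 27.5 to 84.3. The ranges overlapped for each gene, but all 9 low pools were above the median of the 18 for CD48 and ZAP70, and 8 of 9 for LCK. This was not particular to them, as it also held for 9 of 9 for GZMB and 8 of 9 for CD14 and ARHGDIB. These did not pass with Y-linked CPM. For the remaining retained members the number was between 1 (CD68) and 7 (IL2RG and CXCR4), and it was not counted over all genes. Over all pools the 3 genes fell with Y-linked CPM, by 0.11 ± 0.02, 0.15 ± 0.04 and 0.16 ± 0.03 on the log2 scale per doubling (edgeR adjusted p = 0.00336, 0.0360 and 0.00402), and 2.97% of all genes fell. GZMB had medians of 4.32 and 1.41 CPM, with an adjusted p of 0.0649. Within the 18 pools alone 0 members passed, where 15 of all 12310 genes rose and 52 fell. The slope of ZAP70 there was 0.06 (edgeR adjusted p = 0.927). PTPRC had medians of 3.16 and 2.65 CPM in the 9 and 18 pools and a slope of 0.01 ± 0.06.

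**Figure D5:**
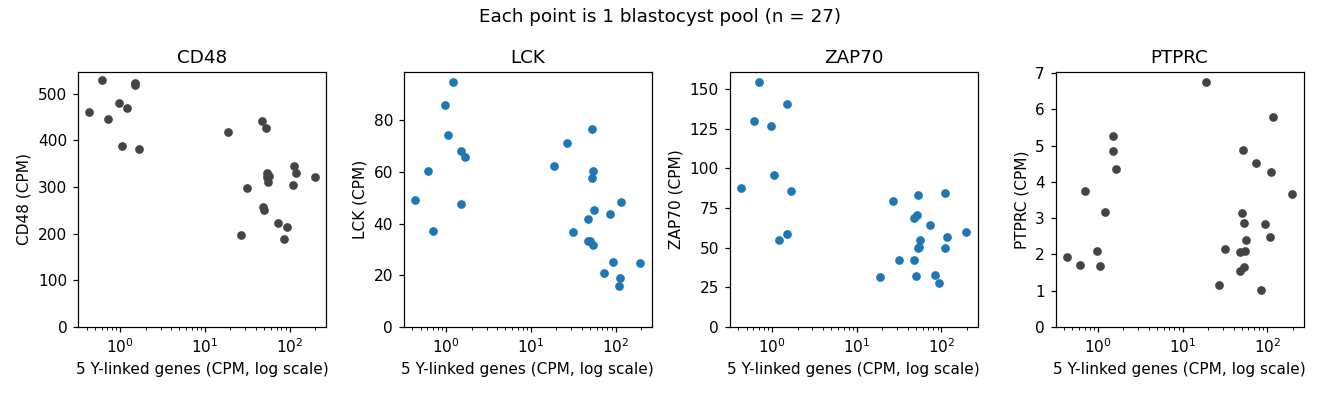
CPM of CD48, LCK, ZAP70 and PTPRC (vertical axes from 0) against the summed CPM of 5 Y-linked genes (log scale) in 27 blastocyst pools. The 9 pools at 0.430 to 1.65 CPM of Y-linked transcripts lie toward the top for CD48, LCK and ZAP70, and spread over the range for PTPRC.

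With the summed trophectoderm markers, 3 members fell, CD48 by 0.80 ± 0.22, ZAP70 by 1.14 ± 0.30 and CD14 by 2.98 ± 0.84 on the log2 scale per doubling (edgeR adjusted p = 0.0284, 0.0218 and 0.0288), and 2.47% of all genes fell. Without pools 9 and 25, CD14 and ZAP70 still passed and CD48 did not. Trophectoderm markers KRT8 and KRT18 rose with Y-linked transcripts, so the 2 measures were not independent. Among themselves, CD48 had a rho of 0.625 with ZAP70, 0.515 with LCK and 0.563 with GZMB, against 0.255 with PTPRC.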

How the data were processed

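RNA sequencing was performed on 27 pools of 2 bovine blastocysts. Libraries covered the 3' ends of transcripts (SMART-Seq v4). The authors deposited raw counts per gene, made from forward reads by trimming (fastp), alignment to ARS-UCD2.0 (STAR) and counting (featureCounts). Tool versions are not given in the sources used here. Reads were counted rather than molecules, and the level of 3 counts therefore covers counting error only. Whether strand was used in counting was not stated, so overlapping genes could share reads.

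Pools were treated as 1 group, because treatment and IVF replicate were not assigned here. No batch was given, so relations were not recomputed within batches. CPM was the count per 1000000 counts of a pool, and a gene was retained if 12 pools had 1 CPM or more, the limit of the study (12310 of 32637 genes). Slopes came from edgeR 4.0.16 (R 4.3.3; quasi-likelihood test, TMM) with log2(CPM + 1) of an anchor, or log2 of a pool measure (total count, or summed CPM + 1 of marker genes), as covariate. SE is the slope divided by the square root of F. DESeq2 1.42.0 and 100000 permutations of Spearman correlations (scipy 1.17.1) were alternatives. Positions were taken from RefSeq.

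Members and lists were chosen with earlier results of these data known. All members are accounted for. Genes outside the members were named if they belonged to a marker list and passed with an anchor, with up to 4 of a list, or were among the 5 with the highest rho with an anchor. MS4A1, LYZ3, ALAS2, SLC4A1, KRT8, KRT18 and the Y-linked genes were named after their values were seen. The restriction to the 18 pools and the omission of pools 9 and 25 together were chosen after seeing the data. On simulated counts of 12310 genes with PTPRC as covariate, 69 of 100 genes with a slope of 1 and 20 of 100 with a slope of 0.5 were recovered, with 8 false calls. Promoter and protein sequences were not used here.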

Additional observations from a re-analysis of the deposited data

How the results depend on the processing

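The numbers of members that rose with PTPRC (14) and LYZ (13) were within 1.5 times of these under every alternative run. When a single pool was left out (the highest pool of the anchor, 9 or 25), 11 to 14 rose with PTPRC and 11 to 15 with LYZ. The ranges were 6 to 10 with CD3G, 4 to 7 with JCHAIN and 6 to 7 with CD74, where all pools gave 9, 10 and 8. Of all 12309 genes, 82 to 97, 74 to 123, 40 to 49, 14 to 17 and 37 to 38 rose in these runs, in the same order. With pools 9 and 25 both left out, 5 rose with CD3G, 0 with JCHAIN and 5 with CD74 (16, 1 and 24 of all genes). With total count as a covariate, 3 rose with JCHAIN (9 of all genes). Without the limit on abundance, in which more members were tested, 16 rose with CD3G, 16 with CD74, and 1 (ARHGDIB) with interferon tau against 0. Of all genes then tested, 360 of 24637 rose with CD3G, 385 of 24637 with CD74 and 576 of 24638 with interferon tau. DESeq2 called 14, 12, 13, 16 and 12 members with PTPRC, CD3G, JCHAIN, LYZ and CD74. Of all genes, 121, 74, 58, 110 and 68 rose there. Permutation of Spearman correlations called 11, 8, 8, 12 and 10 members, and 99, 60, 52, 97 and 62 of all genes rose. Within the 18 pools with 10 CPM or more in Y-linked genes, 0 members passed and the slope of ZAP70 turned to 0.057. Of all 12310 genes, 15 rose and 52 fell there. Fewer pools were tested there, and the cause was not tested further. Correlations between anchors kept their sign with TMM scaling and a pseudocount of 0.1, and 32 members were retained at 0.5 CPM. Slopes were smaller with that pseudocount. With 0.1, the median slope of members on PTPRC, CD3G, JCHAIN, LYZ and CD74 was 0.69, 0.55, 0.85, 0.68 and 0.51. With the pseudocount of 1 used elsewhere, it was 0.90, 0.85, 1.02, 0.88 and 0.60.

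No paired analysis was possible because the numbers of the pools name single pools, and the treatment and IVF replicate that pools share were not assigned here. The 13 members below the limit on abundance had a median of 1 to 23 counts per pool, and the part of depth in this was not tested. In the simulation most slopes of 0.5 were missed, so a member that missed the threshold may still follow an anchor.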
